A study of Mus musculus with 11 samples.

Results

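The heat shock response was described in B16-OVA mouse melanoma cells that had been transfected with siRNAs against YAP and TAZ. Expression after heat was compared with expression without heat, gene by gene. The genes were those with at least 1 FPKM in at least 2 of the 6 libraries of these cells, which left 12035 of 54686 entries of the gene table (22%). FPKM counts a gene's fragments relative to the length of its transcript and the depth of the library. Of these genes, 10125 were annotated as protein-coding and 265 were unannotated loci from transcript assembly. The filter was passed in both groups by 11025 genes, in unheated libraries alone by 627 and in heated libraries alone by 294, and 89 needed 1 library of each. The 5 genes just inside it had a second highest value of 1.0004 to 1.0037 FPKM, and the 5 just outside had 0.99786 to 0.9996 FPKM.

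All cells were B16-OVA, of C57BL/6J origin, and all carried an siRNA for 48 h. The cells under study received a mixture of siRNAs directed at both YAP and TAZ, and 3 libraries were made without heat and 3 after 45 °C for 1 h and recovery at 37 °C for 6 h. Cells with a control siRNA gave 3 unheated and 2 heated libraries, which serve here as the comparison. The heated control libraries are numbered 1 and 3, and none numbered 2 is among the 11 libraries of the series. Whether replicates came from separate cultures is not stated, and the p-values reflect the spread among these libraries, possibly technical. Knockdown was read from RNA. Yap1 stood at 2.75, 3.02 and 2.54 FPKM unheated and 2.61, 2.26 and 2.29 FPKM heated, and under control siRNA at 7.26, 5.79 and 15.6 FPKM unheated and 10.9 and 5.96 FPKM heated. Wwtr1, which encodes TAZ, stood at 1.83, 1.83 and 1.65 FPKM unheated and 1.72, 1.4 and 1.55 FPKM heated, and under control siRNA at 5.38, 6.28 and 8.2 FPKM and 5.5 and 8.47 FPKM. Every YAP/TAZ siRNA library was below every control library for both genes, and neither passed the test for heat (log2 changes -0.16 ± 0.30 and -0.12 ± 0.16, adjusted p = 0.689 and 0.56, limma).

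Heat unfolds proteins. Chaperones that are drawn to the unfolded proteins release heat shock factor 1 (HSF1), which forms trimers, binds heat shock elements built from inverted GAA units, and raises transcription of inducible chaperone genes, while transcription of most other genes is held back. YAP and TAZ are co-activators that bind DNA through TEAD factors and are restrained by the Hippo kinases. RNA sampled hours into recovery shows what remains of the early wave together with later changes, and in bulk RNA fewer expressing cells cannot be told apart from less RNA per cell.

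Heat shock elements were looked for in the windows that RefSeq places around gene starts, 250 bases before to 50 after (build GRCm38.p6). The windows below belong to genes that rose after heat and hold more than 1 match, so they are not typical of the genes that rose. Capitals mark each match to the 8-letter motif GAANNTTC or TTCNNGAA, searched on both strands (each form is its own reverse complement). A longer motif of 13 letters joins 3 such units (GAA, TTC and GAA, or TTC, GAA and TTC on the other strand, with any 2 letters between units), and always holds both 8-letter forms. Hspe1 encodes mitochondrial Hsp10, Hspb1 a small heat shock protein, Hsph1 the Hsp110 nucleotide exchange factor and Chordc1 a co-chaperone of Hsp90.
Hspe1 (chr1:55087898-55088197, plus strand): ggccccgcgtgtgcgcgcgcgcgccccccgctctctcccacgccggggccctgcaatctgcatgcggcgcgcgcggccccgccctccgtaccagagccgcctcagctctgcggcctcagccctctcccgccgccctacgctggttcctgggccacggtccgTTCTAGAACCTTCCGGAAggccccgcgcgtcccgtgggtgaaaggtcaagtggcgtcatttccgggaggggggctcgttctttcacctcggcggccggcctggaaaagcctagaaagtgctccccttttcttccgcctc
Hspb1 (chr5:135887669-135887968, plus strand): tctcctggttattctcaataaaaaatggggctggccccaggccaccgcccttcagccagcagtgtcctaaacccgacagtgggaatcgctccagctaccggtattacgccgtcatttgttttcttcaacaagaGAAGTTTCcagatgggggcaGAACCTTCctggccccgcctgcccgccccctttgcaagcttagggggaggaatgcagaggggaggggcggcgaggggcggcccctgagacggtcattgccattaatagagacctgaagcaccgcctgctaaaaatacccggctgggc
Hsph1 (chr5:149636287-149636586, minus strand): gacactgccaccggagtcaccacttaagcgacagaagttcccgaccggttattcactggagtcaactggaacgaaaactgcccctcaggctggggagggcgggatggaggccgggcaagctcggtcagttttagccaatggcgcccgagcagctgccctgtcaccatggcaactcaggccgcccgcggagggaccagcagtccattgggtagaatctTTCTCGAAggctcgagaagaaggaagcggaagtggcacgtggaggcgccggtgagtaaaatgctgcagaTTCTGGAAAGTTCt
Chordc1 (chr9:18292017-18292316, plus strand): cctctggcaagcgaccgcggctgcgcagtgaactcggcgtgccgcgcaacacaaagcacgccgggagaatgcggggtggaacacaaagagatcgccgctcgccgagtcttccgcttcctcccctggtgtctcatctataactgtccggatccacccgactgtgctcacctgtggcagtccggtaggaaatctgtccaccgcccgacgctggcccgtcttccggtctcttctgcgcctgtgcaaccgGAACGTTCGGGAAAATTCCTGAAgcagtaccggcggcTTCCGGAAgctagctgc
8250 of the tested genes had such a window. The 8-letter motif was in 13.3% of all of them, in 14.0% of those that rose after heat and in 9 of the 25 that rose at least 2-fold. Among genes of the cytosolic chaperone lists it was in 10 of 24 that rose and 6 of 29 that did not. The 13-letter motif was in 0.57% of all windows' genes, 1.2% of those that rose and 0.412% of those that fell. Of the 4 genes shown, Hspe1, Hsph1 and Chordc1 held the 13-letter form and Hspb1 the 8-letter form alone. A match describes these letters and not a bound site. Of other genes that rose, the windows of Hspa1a, Bag3 and Jun held 1 match, and those of Dnajb1 and Ubb held none.

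Across all 12035 genes, 2241 rose after heat (18.6%), 3976 fell (33.0%) and 5818 did not pass the test, so that 51.7% were called. The counts of every gene list below are to be read beside these shares. A gene is said to rise or fall where limma, fitted on log2(FPKM + 1) over all 11 libraries, gave an adjusted p (Benjamini-Hochberg over all genes tested) below 0.05, and log2 changes are differences of group means on that scale with their standard error (±). The heated and unheated libraries did not overlap for 6997 genes (58.1%). Most changes were small: 118 genes rose and 197 fell by at least 2-fold, and the median over all genes was -0.093. The split of calls depended on scaling, with 1333 higher and 5745 lower when libraries were set to one total (median -0.23). Median-of-ratios factors gave 2891 higher and 3021 lower (median -0.017), and quantile normalization gave 2707 higher and 2875 lower (median -0.0094). Summed FPKM was 304648 to 322681 in unheated and 340458 to 360547 in heated libraries. The spacing of the lowest values corresponded to 41.4, 40.5 and 39.1 M units in unheated and 30.4, 32.2 and 38.7 M units in heated libraries. Every heated library was thus below every unheated one by this estimate, which was sought only within a preset range. The unit (read or fragment) is not given, and the part of depth in the calls was not tested. Markers of the melanoma line were present (7 of 7 passed the filter, summed at 7840 to 8191 FPKM without heat and 7155 to 8012 FPKM after it). Of markers of other cell types, 0 of 9 fibroblast, 0 of 9 lymphocyte, 0 of 7 endothelial, 0 of 7 keratinocyte and 2 of 10 macrophage genes passed, the latter (Cd68 and Lyz2) at no more than 1.73 FPKM.

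The inducible chaperone genes rose. The inducible Hsp70 genes, which refold proteins in the cytosol, are near-identical neighbours, so fragments may be shared between them. Hspa1a (ENSMUSG00000091971, chromosome 17, 34969190 to 34972156) went from 1.08, 1.3 and 1.04 FPKM to 96.4, 133 and 14.7 FPKM. Hspa1b (ENSMUSG00000090877, chromosome 17, 34956436 to 34959238) went from 3.78, 4.43 and 3.83 FPKM to 33.6, 192 and 133 FPKM. Both rose (log2 change 4.79 ± 0.64, adjusted p = 0.000341, and 4.27 ± 0.64, adjusted p = 0.0006, limma) and no heated library overlapped an unheated one, although heated replicate 3 was low for Hspa1a and heated replicate 1 for Hspa1b. Hspb1 (ENSMUSG00000004951, chromosome 5, 135887919 to 135889563), which holds unfolded proteins, went from 10.2, 10 and 13.6 to 182, 232 and 112 FPKM, and every heated library was above every unheated one. Dnajb1 (ENSMUSG00000005483, chromosome 8, 83608193 to 83612653), the J-domain partner that hands substrates to Hsp70, went from 21.4, 18.5 and 20.8 to 104, 117 and 101 FPKM. Bag3 (ENSMUSG00000030847, chromosome 7, 128523616 to 128546981), an exchange factor that steers Hsp70 clients to autophagy, went from 23.8, 24.1 and 22.8 to 89.9, 107 and 89.5 FPKM. Their log2 changes were 3.79 ± 0.24, 2.35 ± 0.08 and 1.97 ± 0.073 (adjusted p = 7.36e-06, 3.52e-07 and 5.33e-07).

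**Figure D1:**
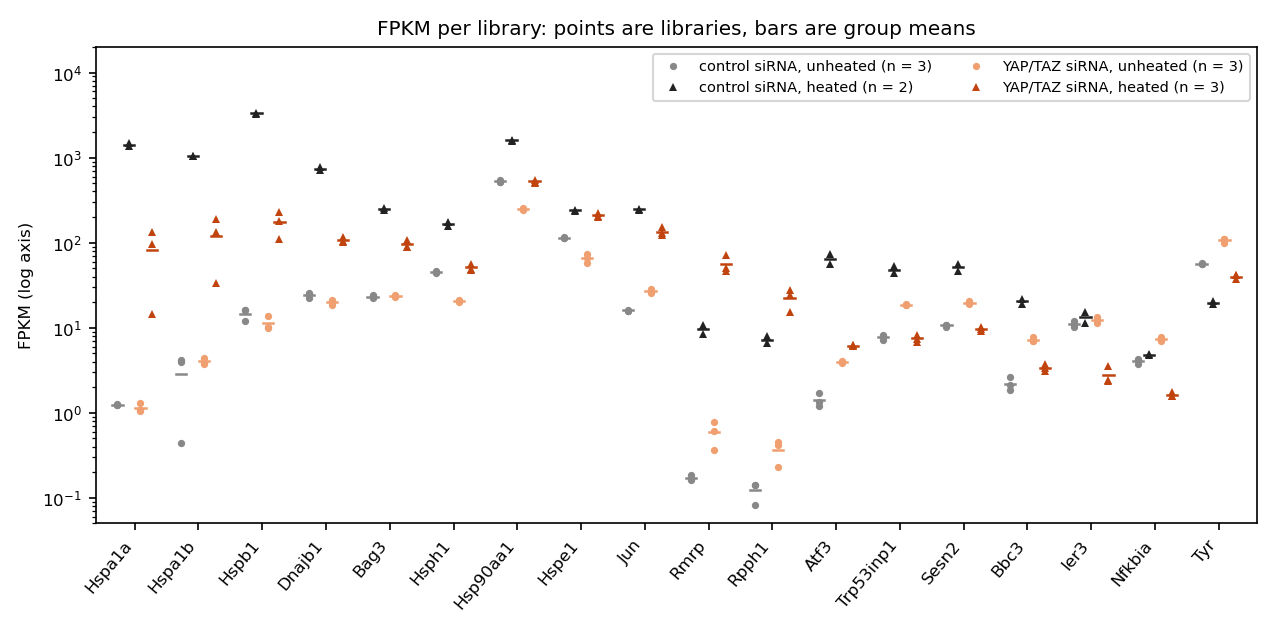
FPKM of 18 genes in each of the 11 libraries on a log axis, with points for libraries and bars for group means. The heated YAP/TAZ siRNA libraries of Hspa1a, Hspa1b and Hspb1 lie above their unheated libraries and below the heated control libraries, while Trp53inp1, Sesn2 and Bbc3 are lower after heat under YAP/TAZ siRNA and higher after heat under control siRNA.

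Each of these 5 genes rose further under control siRNA, and the difference between the siRNAs was itself tested. The log2 difference of the heat responses (YAP/TAZ siRNA minus control siRNA) was -4.52 ± 0.95 for Hspa1a (adjusted p = 0.0059), -4.04 ± 0.95 for Hspa1b (adjusted p = 0.00994), -3.94 ± 0.36 for Hspb1 (adjusted p = 7.95e-05), -2.51 ± 0.12 for Dnajb1 (adjusted p = 3.65e-06) and -1.40 ± 0.11 for Bag3 (adjusted p = 3.73e-05). Heated control libraries held 3296 and 3321 FPKM of Hspb1 and 769.8 and 713 FPKM of Dnajb1, above every heated YAP/TAZ siRNA library. The log2 change of the constitutive Hsp70 gene Hspa8 was larger under YAP/TAZ siRNA, from a lower unheated level. Hspa8 went from 296, 284 and 297 to 474, 449 and 488 FPKM there, a rise of 0.68 ± 0.044 (0.20 after quantile normalization). Its control change was 0.055 (difference 0.63 ± 0.066, adjusted p = 0.000173). Control libraries held 489, 505 and 516 FPKM unheated and 529 and 516 FPKM heated, the heated ones above every heated YAP/TAZ siRNA library.

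Of 20 Hsp90 genes and co-chaperones, 12 rose and 4 fell, with a median of 0.31 beside -0.093 for all genes. With libraries set to one total 9 rose and 5 fell (median 0.16). Hsp90aa1, the inducible Hsp90, went from 239.9, 252 and 258 to 521, 549 and 507 FPKM, and Hsp90ab1, its constitutive relative, from 613, 626 and 649 to 1069, 1049 and 1109 FPKM. Both sets of libraries stayed apart (log2 changes 1.07 ± 0.047 and 0.77 ± 0.044, the latter 0.24 after quantile normalization). The ATPase activator Ahsa1 (0.67 ± 0.044), the kinase adaptor Cdc37 (0.61 ± 0.088) and Stip1, which links Hsp70 to Hsp90 (0.60 ± 0.048), rose with them. Hsph1 rose by 1.27 ± 0.069 and Hspa2, the Hsp70 of germ cells, fell (-0.56 ± 0.09). Among 22 cytosolic J-domain genes 8 rose and 6 fell, with Dnaja1 at 0.84 ± 0.053 and Dnajc16 at -0.83 ± 0.09. Of 8 BAG and related exchange factor genes 3 rose and 2 fell, with Bag1 at 0.53 ± 0.088 and Bag5 at -0.22 ± 0.041.

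Small heat shock proteins were uneven between libraries. Cryab, the alphaB-crystallin gene, went from 56.9, 49.6 and 55.2 to 90.5, 87.5 and 100.1 FPKM and rose by 0.77 ± 0.066 (adjusted p = 3.46e-05). Hspb8, which works with Bag3, was at 14.1, 15 and 15.2 FPKM unheated and 8.03, 29.1 and 28.4 FPKM heated. Heated replicate 1 lay below all unheated libraries and the other heated libraries above them, so that the change was not called (0.34 ± 0.38, adjusted p = 0.477) and was 0.92 (adjusted p = 0.00015) without that library. The factor genes themselves moved little. Hsf1 went from 4.26, 3.84 and 3.85 to 4.79, 5.17 and 4.69 FPKM, a rise of 0.24 ± 0.053 that ended with libraries set to one total (0.10, adjusted p = 0.19), and its binding protein gene Hsbp1 rose by 0.32 ± 0.063.

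Genes of the folding machines for newly made proteins rose. TRiC is the ring chaperonin that folds actin and tubulin, and prefoldin delivers chains to it. All 8 TRiC subunit genes rose (median 0.46, with 0.12 under control siRNA), as did all 6 prefoldin genes (median 0.50, with -0.077 under control siRNA). After quantile normalization 5 TRiC genes (median 0.22) and 5 prefoldin genes (median 0.31) rose, and with libraries set to one total 8 and 4. Cct5 went from 97.6, 98.5 and 103 to 148, 146 and 153 FPKM and Pfdn6 from 17.4, 15.5 and 17.9 to 29.2, 27.2 and 33 FPKM, with no overlap between heated and unheated libraries. The difference between the siRNAs was called higher for 7 of 8 TRiC and 6 of 6 prefoldin genes, against 25.4% of all genes. This compares changes and not levels. Under control siRNA Cct5 was at 156, 146 and 160 FPKM unheated and 159 and 166 FPKM heated. Its heated control libraries lay above every heated YAP/TAZ siRNA library. Pfdn6 was at 21.2, 20.6 and 22.7 FPKM and 18.2 and 21.3 FPKM, and its heated control libraries lay below every heated YAP/TAZ siRNA library. The prefoldin gene Vbp1 was closest to the threshold (0.27 ± 0.083, adjusted p = 0.0211) and its call ended without unheated replicate 1 (0.19, adjusted p = 0.063) or heated replicate 1 (0.23, adjusted p = 0.073).

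In mitochondria, the chaperonin partners Hspe1 and Hspd1, whose genes share a promoter region, both rose. Hspe1 (ENSMUSG00000073676, chromosome 1, 55088132 to 55091307) went from 65.5, 58.1 and 73.8 to 199.8, 205 and 223 FPKM and Hspd1 (Hsp60) from 318, 350.0 and 351 to 534, 534 and 539.6 FPKM. The heated libraries stood apart for both (1.66 ± 0.078, adjusted p = 1.49e-06, and 0.66 ± 0.047, adjusted p = 1.33e-05), although Hspd1 was at 0.14 after quantile normalization and then not called. Hspe1 was among the genes whose log2 change was larger than under control siRNA (difference 0.59 ± 0.12, adjusted p = 0.00425). Its control libraries were at 114, 113 and 116 FPKM unheated and 238 and 243 FPKM heated, above the YAP/TAZ siRNA libraries in each state. Of 15 mitochondrial chaperone and protease genes 8 rose and 1 fell, Grpel2 (-0.29 ± 0.04), an exchange factor of the mitochondrial Hsp70. Of 25 endoplasmic reticulum genes 6 rose and 10 fell, beside 18.6 and 33.0% of all genes (median -0.20). Pdia3, a disulfide isomerase, rose by 0.54 ± 0.057. Herpud1, which serves degradation at the endoplasmic reticulum, went from 33.8, 36.5 and 34.2 to 17.1, 17 and 16.9 FPKM and fell (-1.0 ± 0.088, adjusted p = 4.07e-05), as did the sensor gene Atf6 (-0.63 ± 0.078) and Sel1l (-0.75 ± 0.06).

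Proteasome genes rose in numbers that depended on scaling, and the ubiquitin gene Ubb rose. Ubb (ENSMUSG00000019505, chromosome 11, 62551171 to 62553213), a polyubiquitin gene, went from 2.76, 2.71 and 2.67 to 11.7, 11.9 and 10.9 FPKM. The heated libraries were far above the unheated ones (1.75 ± 0.26, adjusted p = 0.000636), although its repeats occur in other ubiquitin genes too and its level is uncertain. Of 35 proteasome subunit genes 24 rose and 0 fell (limma; 51.7% of all genes were called at this threshold), with a median of 0.30. When libraries were set to one total, 16 rose and 1 fell (median 0.14), and after quantile normalization 17 rose and 0 fell (median 0.15). Psmd4, a ubiquitin receptor of the proteasome, went from 36.6, 35.7 and 39 to 57.9, 52.5 and 60.1 FPKM, and Psmb7, a catalytic subunit, from 38.7, 40.4 and 45.5 to 64, 58.6 and 66.9 FPKM. Of 28 autophagy genes 3 rose and 10 fell, and of 34 lysosomal genes 10 rose and 10 fell, splits that turned on scaling. At one total per library, 0 rose and 17 fell of the autophagy genes, and 4 rose and 21 fell of the lysosomal genes. After quantile normalization these were 6 and 4 for autophagy and 3 and 19 for the lysosome. Atg13, part of the starting kinase complex of autophagy, fell from 10.5, 10.5 and 10.9 to 5.44, 6.22 and 5.71 FPKM (-0.78 ± 0.054), and the kinase gene Ulk1 fell by 0.57.

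Genes of protein synthesis rose in large numbers. Of 77 cytosolic ribosomal protein genes 73 rose and 0 fell, with a median of 0.76, against 0.088 under control siRNA. After quantile normalization 62 rose and the median was 0.40. Their share of all FPKM was 4.50, 4.15 and 4.65% in the unheated libraries and 6.78, 6.25 and 7.04% in the heated ones. Rps2 went from 380.4, 344 and 405 to 697, 626 and 749 FPKM and Rplp0 from 957, 869 and 981 to 1536, 1486 and 1552 FPKM, and neither overlapped (log2 changes 0.87 ± 0.079 and 0.71 ± 0.059, or 0.32 and 0.45 after quantile normalization). Ribosomal protein genes have many processed pseudogenes, and reads can be split between them. Of 903 processed pseudogenes of any parent gene tested, 405 rose and 71 fell, and they were not assigned to parent genes. Mitochondrial ribosomal protein genes included 51 of 78 that rose and 3 that fell (median 0.30, with -0.20 under control siRNA), and Mrpl50 fell (-0.70 ± 0.062). With libraries set to one total 32 rose and 9 fell. Of 43 translation factor genes 27 rose and 0 fell as deposited, and 21 rose and 6 fell after quantile normalization. Eif2s1, the alpha subunit of eIF2, went from 26.6, 28.6 and 31.7 to 47.8, 43.9 and 45.1 FPKM (0.64 ± 0.065).

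Many ribosome assembly genes rose under YAP/TAZ siRNA and many fell under control siRNA. Of 40 such genes 22 rose and 3 fell with YAP/TAZ siRNA (median 0.24), and 0 rose and 30 fell with control siRNA (median -0.43), where 10.1% of all genes rose and 37.9% fell. When libraries were set to one total, 13 rose and 9 fell under YAP/TAZ siRNA. The difference was called higher for 35 of the 40, against 25.4% of all genes. Npm1, the nucleolar histone chaperone, went from 151, 146 and 182 to 287, 248 and 269.8 FPKM. Under control siRNA Npm1 did not fall (0.073, not called). It was at 275, 269 and 283 FPKM unheated there and at 289 and 291 FPKM heated, above every YAP/TAZ siRNA library when heated. Gar1, a protein of H/ACA RNA particles, went from 7.54, 6.97 and 7.82 to 11.6, 10.4 and 10.9 FPKM. Gar1 rose by 0.50 ± 0.057 here and was at -0.67 under control siRNA (difference 1.18 ± 0.086, adjusted p = 2.97e-05). Of 22 cytosolic aminoacyl-tRNA synthetase genes 11 rose and 2 fell, with the median turning from 0.13 to -0.028 when libraries were set to one total.

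Rmrp and Rpph1, a pair of noncoding RNAs of RNA processing, rose and were named because their changes were among the highest. Of 101 snoRNA genes, which guide RNA modification, 21 rose and 28 fell (20.8 and 27.7%, beside 18.6 and 33.0% of all genes). Rmrp (ENSMUSG00000115420, chromosome 4, 43492783 to 43493063) encodes the RNA of RNase MRP, which cuts precursor ribosomal RNA, and Rpph1 (ENSMUSG00000092837, chromosome 14, 50807449 to 50807767) the RNA of RNase P, which trims tRNA precursors. Rmrp was at 0.785, 0.614 and 0.363 FPKM unheated and 71.3, 46.2 and 49.8 FPKM heated. Rpph1 was at 0.454, 0.23 and 0.415 and 28, 15.4 and 24.1 FPKM. Heated libraries of both were far above every unheated one (log2 changes 5.14 ± 0.16, adjusted p = 2.5e-07, and 4.07 ± 0.18, adjusted p = 1.37e-06, limma). Both were below 1 FPKM in every unheated library and passed the filter through the heated libraries alone. The filter thus favoured a rise, and these tests are given as description only. Under control siRNA both also rose, by 3.17 and 2.88, and the difference was called higher for Rmrp (1.98 ± 0.24, adjusted p = 0.000382) and for Rpph1 (1.19 ± 0.27, adjusted p = 0.00849). How RNA was selected for the libraries is not given in the sources used here. Of 15 long noncoding and snoRNA host RNAs tested 7 rose and 1 fell, among them Snhg1 (0.46 ± 0.073) and Zfas1 (0.36 ± 0.076).

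Most nuclear genes of the respiratory chain rose, and most mitochondrial mRNAs did not pass the test. Of 74 nuclear-encoded oxidative phosphorylation genes 65 rose and 1 fell (median 0.44, with -0.051 under control siRNA). At one total per library, 48 rose, and after quantile normalization 43. Atp5e, of the ATP synthase, went from 36.9, 31 and 41.9 to 68.7, 60.6 and 74 FPKM and the complex I gene Ndufa10 from 39.9, 37.4 and 41 to 57.3, 56.2 and 60.1 FPKM. Of 13 mitochondrially encoded mRNAs 1 rose and 4 fell, and 11 rose and 0 fell under control siRNA. mt-Nd4 went from 2884, 2882 and 2994 to 3535, 3824 and 3612 FPKM and rose (0.32 ± 0.05), while mt-Nd1 went from 4000.5, 4129 and 4400.3 to 2848, 3012 and 3005 FPKM and fell (-0.50 ± 0.055). The fall of mt-Nd5 (-0.40 ± 0.12) ended without unheated replicate 1 (-0.35, adjusted p = 0.067), heated replicate 1 (-0.37, adjusted p = 0.06) or heated replicate 3 (-0.33, adjusted p = 0.069). The 12S ribosomal RNA mt-Rnr1 was at 130.2, 136 and 214 FPKM unheated and 579, 329 and 321 FPKM heated, with the groups apart and heated replicate 1 highest (1.33 ± 0.24, adjusted p = 0.00179).

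A run of 4 neighbouring mitochondrial tRNA genes rose by 2.60 to 3.18 on the log2 scale. They lie side by side on the minus strand (chromosome M, 5018 to 5326, GRCm38), between mt-Tw and the COX1 gene, and carry alanine, asparagine, cysteine and tyrosine. Their sequences, taken from GENCODE M21 and written 5′ to 3′ as DNA in lower case, show how short the measured genes are.
mt-Ta: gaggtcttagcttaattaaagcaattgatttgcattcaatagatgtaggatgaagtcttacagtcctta
mt-Tn: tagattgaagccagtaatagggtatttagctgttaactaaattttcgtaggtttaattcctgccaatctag
mt-Tc: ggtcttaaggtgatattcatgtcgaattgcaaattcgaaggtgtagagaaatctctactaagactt
mt-Ty: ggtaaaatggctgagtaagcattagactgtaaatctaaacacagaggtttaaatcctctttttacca
They are 66 to 71 bases long. mt-Ty was at 21.8, 23.9 and 19.4 FPKM unheated and 194, 229 and 192 FPKM heated. mt-Tc was at 32.2, 37.9 and 34.5 and 255, 275 and 229 FPKM, mt-Tn at 45.7, 56.4 and 54.1 and 361, 398 and 303 FPKM, and mt-Ta at 29.2, 33.6 and 33.4 and 199, 229.6 and 174 FPKM. All heated libraries stood far above all unheated ones (log2 changes 3.18 ± 0.14, 2.82 ± 0.12, 2.74 ± 0.12 and 2.60 ± 0.12, each with an adjusted p of 1.37e-06 or 1.49e-06, limma). Under control siRNA the same genes changed by 0.68, 0.75, 1.05 and 0.99, and the difference was called for all 4 (mt-Ty 2.50 ± 0.21, adjusted p = 5.3e-05, and mt-Ta 1.61 ± 0.18, adjusted p = 0.000256). Of 21 mitochondrial tRNA genes tested, a list added after the values were seen, 10 rose and 1 fell. Other minus-strand tRNAs stood apart from the run: mt-Te rose by 0.58 ± 0.12, and mt-Tq (0.06 ± 0.14), mt-Ts1 (0.16 ± 0.30) and mt-Tp (-0.79 ± 0.89) were not called. Whether the counting used strand is not given, so reads from the other strand of this stretch cannot be told apart.

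**Figure D2:**
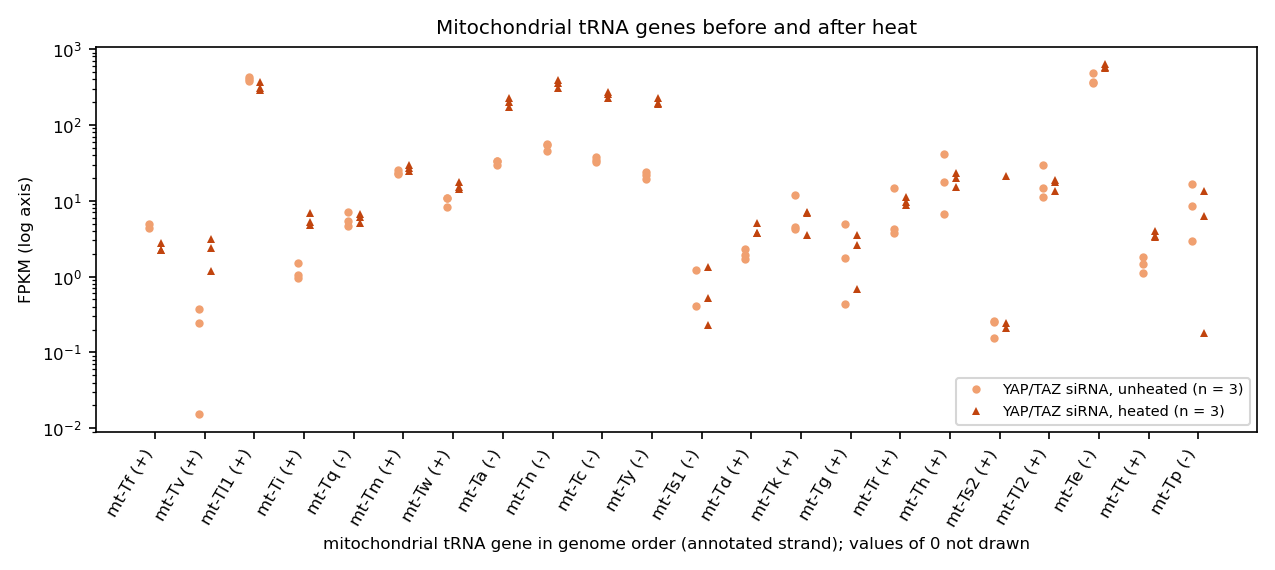
FPKM on a log axis of the 22 mitochondrial tRNA genes in genome order, with the annotated strand in brackets, in the 3 unheated and 3 heated YAP/TAZ siRNA libraries. The neighbours mt-Ta, mt-Tn, mt-Tc and mt-Ty are at 19.4 to 56.4 FPKM without heat and at 174 to 398 FPKM after it.

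The change after heat was ordered by transcript length. Length here is the union of a gene's exons in GENCODE M21. Of 225 protein-coding genes under 1000 bases 114 rose and 20 fell (median 0.32), and of 1882 genes of 8000 bases and over 84 rose and 979 fell (median -0.26). Medians fell through every step between, from 0.17 at 1000 to under 1500 bases to -0.18 at 6000 to under 8000 bases. Under control siRNA the same groups had medians of -0.038 and -0.21. Across 10125 genes Spearman's rho of length against change was -0.351 under YAP/TAZ siRNA and -0.047 under control siRNA, as a description across genes, which are not independent replicates. The order held without the ribosomal and oxidative phosphorylation lists (0.26 under 1000 bases and -0.26 at 8000 and over) and among genes at 5 to 50 FPKM (0.28 and -0.31). Median exonic length was 1770 bases for the cytosolic ribosomal protein genes, 1778.5 for oxidative phosphorylation, 1665.5 for prefoldin and 2820 for the proteasome. It was 6183 for receptor tyrosine kinases, 9596 for chromatin methylation enzymes and 6971 for Hippo components. The part of length in the results for these lists was not tested.

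**Figure D3:**
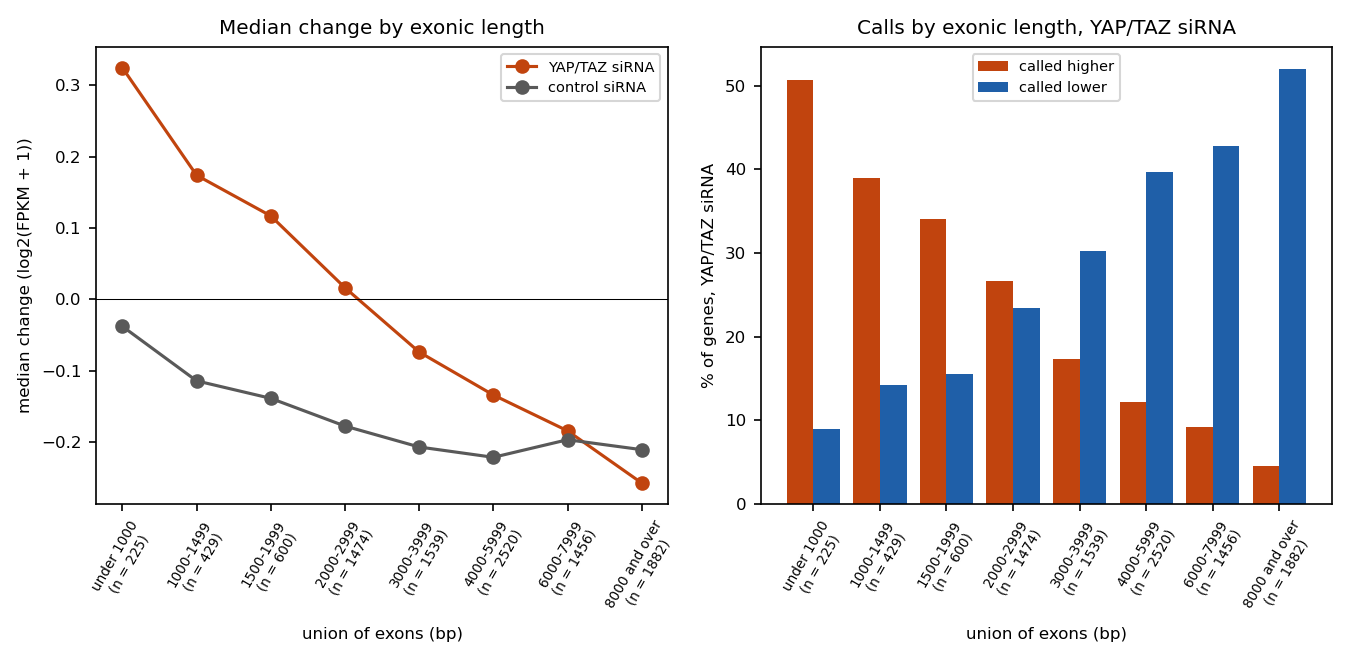
Left, median log2 change after heat in 8 classes of exonic length (bp) for 10125 protein-coding genes under each siRNA, and right, the percent of genes called higher or lower under YAP/TAZ siRNA. The YAP/TAZ siRNA medians run from 0.32 to -0.26, the control medians from -0.038 to -0.22, and the shares called higher from 50.7 to 4.46%.

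Energy metabolism outside the respiratory chain changed less. Of 17 tricarboxylic acid cycle genes 9 rose and 1 fell, the oxoglutarate dehydrogenase gene Ogdh (78.3, 75.1 and 74.5 to 56.3, 56.3 and 56.5 FPKM, -0.42 ± 0.041). With libraries set to one total 5 rose and 2 fell. Of 19 glycolysis genes 9 rose and 3 fell as deposited, and 2 rose and 5 fell after quantile normalization. Tpi1, triose phosphate isomerase, rose from 195, 202 and 208 to 323, 297 and 305 FPKM (0.61 ± 0.048), and the glucose transporter gene Slc2a1 fell from 10.3, 10.2 and 9.4 to 5.23, 4.79 and 5.18 FPKM (-0.86 ± 0.055). Pgk1 (0.54 ± 0.048) and Aldoa (0.49 ± 0.047) rose as deposited and were at -0.017 and -0.010 after quantile normalization. Of 23 cholesterol synthesis genes 4 rose and 13 fell (median -0.22), among them Insig1, a brake on sterol synthesis (-0.54 ± 0.047). Of 15 fatty acid synthesis genes 0 rose and 8 fell. Scd2, a desaturase, went from 115, 99.7 and 74.3 to 39.6, 35.1 and 23.6 FPKM (-1.54 ± 0.27), and the microRNA gene Mir5114, which lies within it, was near 0 in all unheated libraries and heated replicate 1 and at 7.41 and 9.06 FPKM in heated replicates 2 and 3. Under control siRNA Mir5114 was at 25.2, 30.3 and 48.6 FPKM unheated and near 0 in both heated libraries, and reads there cannot be told apart from those of Scd2.

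Many DNA replication genes rose under YAP/TAZ siRNA. Of 32 DNA replication genes 24 rose and 1 fell (median 0.23), while under control siRNA 0 rose and 26 fell (median -0.42). When libraries were set to one total, 11 rose and 1 fell under YAP/TAZ siRNA (median 0.076). Mcm5, of the replicative helicase, went from 40.3, 37.9 and 41.2 to 53, 52 and 53.4 FPKM here and from 64.4, 63.2 and 63 to 43 and 43.7 FPKM under control siRNA. The groups did not overlap in either case, and the difference was 0.94 ± 0.06 (adjusted p = 1.83e-05). Of 32 mitosis genes 11 rose and 4 fell, with a median of 0.061 that was -0.10 with libraries set to one total, where 3 rose and 11 fell. The condensin gene Ncapg rose (0.52 ± 0.045) and the cyclin gene Ccnb1 fell (-0.25 ± 0.042). Of 23 G1 cyclin, kinase and E2F genes 0 rose and 9 fell, beside 18.6 and 33.0% of all genes, and after quantile normalization 1 rose and 8 fell. Cdk2 went from 98, 107 and 99 to 58.7, 61.4 and 59.4 FPKM (-0.75 ± 0.044), and the inhibitor gene Cdkn2c from 25.1, 24.9 and 25.4 to 13.9, 14.6 and 13.7 FPKM (-0.80 ± 0.047).

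Stress-activated transcription factors gave a mixed picture. Jun (ENSMUSG00000052684, chromosome 4, 95049034 to 95052222), a core AP-1 protein, went from 28.3, 25.9 and 27.4 to 129, 152 and 123 FPKM and rose by 2.26 ± 0.073 (adjusted p = 2.5e-07). Its partner Fos went from 2.04, 1.54 and 1.68 to 2.99, 3.66 and 3.06 FPKM (0.62 ± 0.088), and Egr1 from 0.23, 0.306 and 0.169 to 2.52, 2.72 and 2.07 FPKM (1.47 ± 0.16). Egr1 passed the filter through the heated libraries alone. Atf3 (ENSMUSG00000026628, chromosome 1, 191170296 to 191218039), a stress-induced repressor, went from 3.88, 4.0 and 4.04 to 6.26, 6.2 and 6.07 FPKM, a small rise without overlap (0.53 ± 0.10, adjusted p = 0.0025). Under control siRNA Atf3 went from 1.34, 1.72 and 1.2 to 74 and 56.2 FPKM, and the difference was -4.24 ± 0.15 (adjusted p = 9.07e-07). Of 15 early response genes 2 rose and 4 fell, with Myc at 27.2, 25.2 and 29.4 and 10.2, 8.74 and 11.1 FPKM (-1.36 ± 0.092) and Ier3 (ENSMUSG00000003541, chromosome 17, 35821684 to 35822923) at 11.5, 12.3 and 13.5 and 2.44, 2.36 and 3.55 FPKM (-1.84 ± 0.14). Both had heated libraries below all unheated ones. The 2 early response genes that rose were Egr1 and Ier5l. Ier5l, at 0.894, 0.872 and 1.01 FPKM unheated and 1.17, 1.59 and 1.13 FPKM heated, also passed the filter through the heated libraries alone. The filter thus favoured both rises, and they are given as description only. Of 12 dual-specificity phosphatase genes, which switch off MAP kinases, 1 rose (Dusp8, 0.83 ± 0.12) and 6 fell, Dusp6 from 32.8, 35.9 and 33.4 to 16.5, 16.8 and 15 FPKM (-1.04 ± 0.08). Of 11 Kruppel-like factor genes 1 rose and 7 fell (median -0.39), with Klf15 at -1.05 ± 0.069 and Klf6 at -0.52 ± 0.084.

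Many targets of p53, the factor that answers DNA damage, fell under YAP/TAZ siRNA and rose under control siRNA. Of 19 tested 1 rose and 11 fell here (median -0.43), and 13 rose and 2 fell under control siRNA (median 0.51). The difference was called lower for 15 of the 19, against 11.6% of all genes. Trp53inp1 (ENSMUSG00000028211, chromosome 4, 11156431 to 11174379), which promotes autophagy and cell death, went from 18.4, 19.2 and 18.5 to 7.45, 8.22 and 6.78 FPKM here and from 8.0, 8.14 and 7.22 to 52.8 and 43.6 FPKM under control siRNA. Sesn2, a sestrin that restrains mTORC1, went from 18.9, 20.5 and 20 to 9.17, 10.3 and 9.78 FPKM, against 10.7, 10.3 and 10.9 to 56.3 and 46 FPKM. The heated YAP/TAZ siRNA libraries lay below the unheated ones, the heated control libraries above theirs, and the unheated levels were higher under YAP/TAZ siRNA (differences -3.70 ± 0.13 and -3.11 ± 0.11, adjusted p = 9.07e-07 and 9.07e-07). Cdkn1a, the p21 gene, went from 117, 117 and 117 to 84.5, 82.8 and 89.4 FPKM and fell (-0.45 ± 0.064, difference -1.66 ± 0.10, adjusted p = 1.1e-05).

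Cell death and growth arrest genes went both ways. Bbc3, which encodes the BH3 protein PUMA, went from 7.01, 7.05 and 7.74 to 3.34, 3.11 and 3.72 FPKM and fell (-0.91 ± 0.10), and went from 1.85, 2.14 and 2.63 to 21.9 and 19.2 FPKM under control siRNA (difference -3.67 ± 0.14, adjusted p = 1.02e-06). Bmf, another BH3 gene, fell from 2.99, 3.23 and 3.07 to 0.936, 1.13 and 0.978 FPKM (-1.02 ± 0.065), and passed the filter through the unheated libraries alone. Of 11 BCL2 family genes 1 rose and 5 fell, beside 18.6 and 33.0% of all genes. Of 9 GADD45 and BTG growth arrest genes 3 rose and 3 fell (median 0.061). Btg2, an antiproliferative gene, went from 1.88, 1.78 and 2.05 to 0.841, 1.21 and 1.0 FPKM (-0.53 ± 0.081) and differed by -3.54 ± 0.12 from its control response (adjusted p = 9.07e-07), and Btg1 fell (-0.83 ± 0.074). Gadd45g, a stress gene of the same list, rose from 0.516, 0.494 and 0.87 to 4.17, 3.99 and 3.18 FPKM (1.56 ± 0.11), and passed the filter through the heated libraries alone. Of 23 integrated stress response genes, which follow phosphorylation of eIF2, 4 rose and 10 fell. Chac1, which degrades glutathione, went from 11, 10.7 and 12.7 to 3.08, 3.42 and 3.62 FPKM (-1.51 ± 0.076, adjusted p = 2.24e-06) and Trib3 from 8.86, 10.8 and 11.5 to 4.97, 6.03 and 5.26 FPKM (-0.82 ± 0.10), where control values were 1.49 and 1.25. Of 22 NRF2 and ferritin genes 10 rose and 4 fell. Fth1, ferritin heavy chain, rose (0.50 ± 0.069), while Nfe2l2, which encodes NRF2, went from 32.9, 34.4 and 34.8 to 16.4, 14.7 and 15.9 FPKM (-1.07 ± 0.077), and heme oxygenase Hmox1 from 58.4, 61.9 and 63.2 to 39.8, 38 and 40.4 FPKM (-0.62 ± 0.058).

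Many interferon-stimulated genes fell, as did some genes of the NF-kB pathway and of antigen processing. Nfkbia (ENSMUSG00000021025, chromosome 12, 55489410 to 55492647), the inhibitor of NF-kB and one of its targets, went from 7.82, 7.26 and 7.08 to 1.58, 1.56 and 1.75 FPKM, with heated libraries far below unheated ones (-1.67 ± 0.061, adjusted p = 5.33e-07). Its control response was 0.20 (difference -1.87 ± 0.092, adjusted p = 4.02e-06). Of 12 NF-kB pathway genes 0 rose and 6 fell, including the chemokine gene Cxcl10 (10, 8.02 and 10.9 to 3.48, 4.66 and 4.53 FPKM, -1.03 ± 0.16). Of 25 interferon-stimulated genes 0 rose and 18 fell (median -0.41, with 0.055 under control siRNA). The difference was called lower for 12 of the 25, against 11.6% of all genes. Ifit1, which binds foreign RNA, went from 6.5, 6.77 and 7.56 to 2.07, 2.16 and 1.52 FPKM (-1.45 ± 0.10). Of 12 MHC class I and antigen processing genes 1 rose and 5 fell, beside 18.6 and 33.0% of all genes. Among those that fell were H2-K1, a class I heavy chain (9.17, 9.32 and 10.7 to 5.56, 6.17 and 6.64 FPKM, -0.59 ± 0.077), and Tapbp, its loading factor (-0.70 ± 0.089).

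Many Hippo genes fell, and YAP/TAZ targets went both ways. Of 20 YAP/TAZ-TEAD targets tested 3 rose and 9 fell (median -0.34, with -0.21 under control siRNA), and after quantile normalization 6 rose and 7 fell. Ccn1, a matricellular protein gene, rose and went from 1.54, 1.7 and 1.31 to 6.28, 8.56 and 7.07 FPKM (1.72 ± 0.10, adjusted p = 3.73e-06), less than its control change of 2.85 (difference -1.13 ± 0.14, adjusted p = 0.000464). Ptpn14, which binds YAP, fell from 19.1, 17.1 and 14.7 to 9.54, 10.4 and 9.02 FPKM (-0.75 ± 0.10). Of 31 Hippo pathway genes 0 rose and 20 fell (median -0.32; after quantile normalization 2 rose and 13 fell), with the kinase gene Stk4 at -0.52 ± 0.081 and the scaffold gene Mob1b at -0.65 ± 0.067. Vgll4, which competes with YAP for TEAD, fell here (-0.43 ± 0.061) and stood at 0.87 under control siRNA (difference -1.29 ± 0.091, adjusted p = 2.49e-05).

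Several melanocyte identity genes fell. Tyr (ENSMUSG00000004651, chromosome 7, 87424771 to 87493512), tyrosinase of melanin synthesis, went from 100.3, 111 and 111 to 41.4, 41.2 and 37.2 FPKM (-1.40 ± 0.06, adjusted p = 1.27e-06), with a control change of -1.48 and a difference that was not called (0.071 ± 0.09, adjusted p = 0.573). Tspan10, a tetraspanin, went from 164, 155 and 160.3 to 53.1, 45.7 and 59.7 FPKM (-1.59 ± 0.084), and Dct, dopachrome tautomerase, from 1352, 1404 and 1418 to 792, 766 and 798 FPKM (-0.82 ± 0.038). Of 22 pigmentation genes 2 rose and 11 fell. Mlana rose (0.50 ± 0.10), from 1756, 1607 and 1875 to 2421, 2142 and 2857 FPKM, and the lineage factor Sox10 fell (-0.36 ± 0.043). Of 20 receptor tyrosine kinase and adaptor genes 0 rose and 15 fell (median -0.43), with the neuregulin receptor gene Erbb3 at 53.1, 49.3 and 40.7 and 22.5, 28.1 and 22 FPKM (-0.95 ± 0.12) and Mertk at -0.88 ± 0.057. Of 17 collagen, laminin and integrin genes 2 rose and 10 fell. Tubulins showed the limits of scaling: 4 of 10 rose, with Tubb5 at 0.48 ± 0.053, and their median was 0.086 as deposited and -0.19 after quantile normalization, where Tubb5 was at -0.017.

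Many regulators of chromatin fell. Of 39 lysine methyltransferase and demethylase genes 2 rose and 24 fell (median -0.35), and after quantile normalization 3 rose and 14 fell. Kdm5b, a demethylase of H3K4, went from 2.96, 3.17 and 2.64 to 1.12, 1.35 and 1.27 FPKM (-0.80 ± 0.074), and Ezh2, the methyltransferase of Polycomb, rose (0.38 ± 0.056). Of 45 RNA polymerase II and Mediator genes 6 rose and 16 fell (11 and 11 after quantile normalization), beside 18.6 and 33.0% of all genes. The second largest polymerase subunit gene Polr2b was at 33.8, 35.8 and 33.5 and 17.5, 16.3 and 17.1 FPKM (-0.98 ± 0.072), and the small subunit gene Polr2g at 0.70 ± 0.067. Of 15 circadian clock genes 1 rose and 10 fell, Bhlhe41 from 37.2, 37.6 and 38.1 to 21.9, 22.2 and 21.4 FPKM (-0.76 ± 0.051). Of 36 splicing regulator genes 7 rose and 11 fell (3 and 14 after quantile normalization), beside 18.6 and 33.0% of all genes. Srsf5 was among those that fell (57.9, 63.1 and 63.8 to 25.8, 22.6 and 26.8 FPKM, -1.27 ± 0.076). The numbered Zfp zinc finger genes, a list added after the values were seen, had 6 of 190 that rose and 82 that fell (median -0.24), or 13 and 52 after quantile normalization.

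Other gene groups were mixed or lower. Of 22 ID and SMAD genes, which carry BMP and TGF-beta signals, 0 rose and 11 fell (median -0.28, with 0.026 under control siRNA). The difference was called lower for 9 of the 22, against 11.6% of all genes. After quantile normalization 1 rose and 6 fell. Of 9 metallothionein and zinc transporter genes 0 rose and 6 fell. Of 8 Sprouty, Spred and ETV genes, which report on MAP kinase signalling, 1 rose and 4 fell. The 1 that rose, Spry1, passed the filter through the heated libraries alone, which favoured a rise. Of 12 hypoxia genes 1 rose and 3 fell. Of 39 DNA repair genes 8 rose and 9 fell, of 27 nuclear pore genes 9 rose and 6 fell, of 28 actin and contractility genes 9 rose and 6 fell, and of 18 vesicle coat genes 5 rose and 4 fell. At one total per library, these were 4 and 16 for DNA repair, 2 and 12 for the nuclear pore, and 0 and 6 for vesicle coats.

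Several genes with large falls lay outside most of the lists. Plekhm1 (ENSMUSG00000034247, chromosome 11, 103364275 to 103412687), an adaptor of late endosomes, went from 41.8, 41.8 and 36.1 to 7.93, 8.38 and 8.11 FPKM (-2.16 ± 0.10, adjusted p = 1.49e-06). Adamts1, a matrix protease, went from 53.2, 52.5 and 48 to 16.5, 15.8 and 14.8 FPKM (-1.65 ± 0.08) and Lcmt2, a tRNA-modifying enzyme, from 8.17, 8.23 and 8.72 to 2.26, 2.19 and 2.11 FPKM (-1.56 ± 0.07). In all 3 the heated libraries lay far below the unheated ones. Kctd12 was at 7.55, 8.07 and 7.34 FPKM unheated and was listed at 0 in all 3 heated libraries and in 4 of 5 control libraries, which can be a failed estimate, so no fold is given. Ccnd2, a G1 cyclin gene that passed the test at 73.9, 66.9 and 80.4 against 52.3, 20.2 and 9.19 FPKM (-1.72 ± 0.52, adjusted p = 0.0213), lost its call without unheated replicate 1 or 3 or heated replicate 2 or 3, with -1.15 (adjusted p = 0.06) without heated replicate 3.

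Set beside the control siRNA cells, the response was shared in part. Under control siRNA 48.1% of the same genes were called, 1221 higher and 4563 lower, from other libraries. Of the 2241 genes that rose under YAP/TAZ siRNA 465 also rose under control siRNA (20.7% of the first and 38.1% of the second), and of the 3976 that fell 2316 also fell (58.2% and 50.8%). Another 403 genes rose under YAP/TAZ siRNA and fell under control siRNA, and 311 did the reverse. The difference of the heat responses was called for 37.0% of genes, 3056 more positive under YAP/TAZ siRNA and 1391 more negative. These numbers were 2243 and 1536 for libraries set to one total, 1931 and 1861 under median-of-ratios factors, 2019 and 1733 after quantile normalization, and 2009 and 936 without heated control replicate 1. Of the 59 gene lists with at least 3 tested genes, the median change under YAP/TAZ siRNA was above 0 in all 4 scalings for 16, below 0 in all 4 for 23 and of mixed sign for 20 (BAG nucleotide exchange factors, cytosolic J-domain co-chaperones, heat shock factors, polyubiquitin genes and degradation adaptors, autophagy genes, lysosomal hydrolases and proton pump, cytosolic aminoacyl-tRNA synthetases, mitochondrially encoded mRNAs, mitosis genes, DNA repair and damage checkpoint genes, AP-1 factors and Atf3, early response genes, NRF2 antioxidant and ferritin genes, GADD45 and BTG growth arrest genes, actin, SRF and contractility genes, SR, hnRNP and CLK splicing regulators, RNA polymerase II and Mediator subunits, nuclear pore components, COPI and COPII coat subunits and alpha and beta tubulins).

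**Figure D4:**
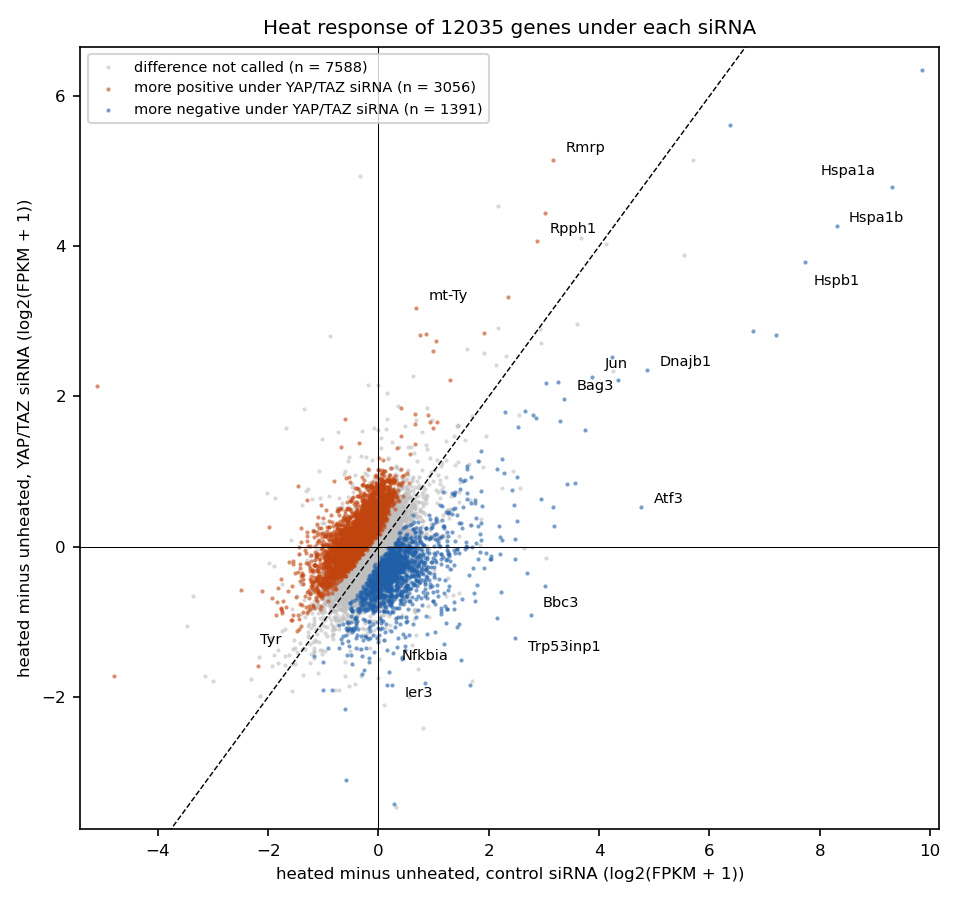
Log2 change after heat under control siRNA (x axis) and YAP/TAZ siRNA (y axis) of 12035 genes, coloured by the call of the difference, with a dashed line of equality. The chaperone genes Hspa1a, Hspa1b and Hspb1 lie far to the right of the line, and Rmrp, Rpph1 and mt-Ty to its left.

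**Figure D5:**
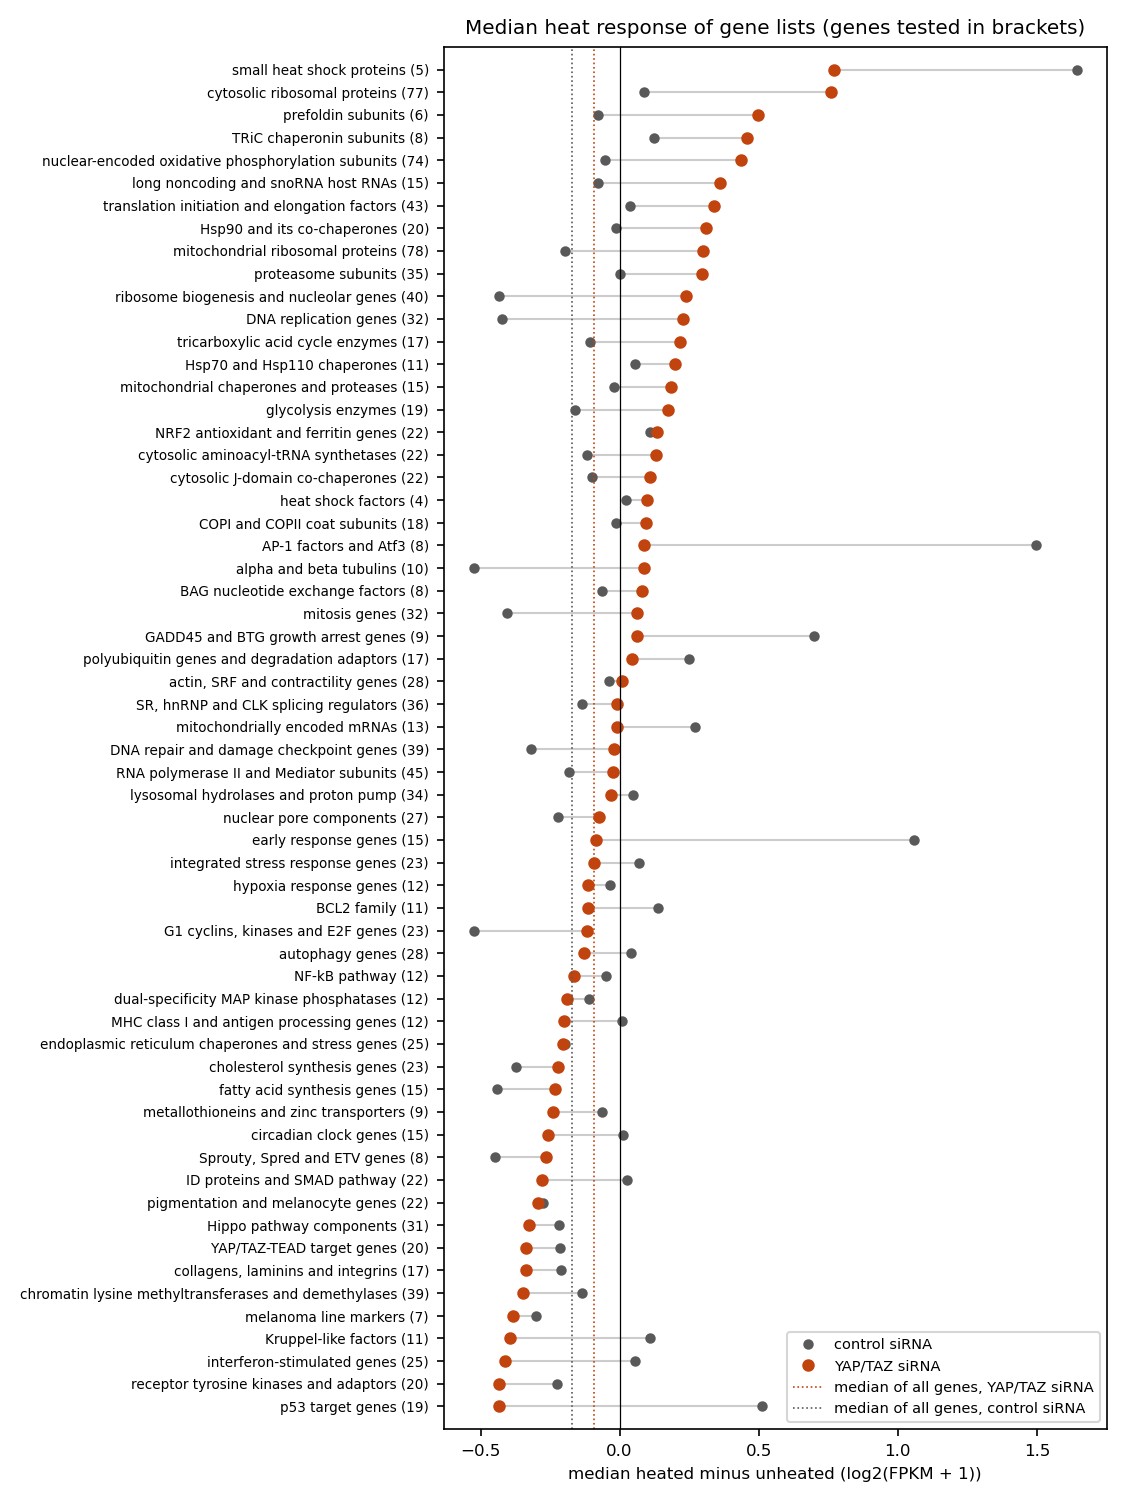
Median log2 change after heat of each gene list with at least 3 genes tested, under YAP/TAZ siRNA and control siRNA, with dotted lines for the medians of all genes. Ribosome biogenesis (0.24 against -0.43) and DNA replication (0.23 against -0.42) lie on opposite sides of 0 from control siRNA, as do p53 targets (-0.43 against 0.51).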

How the data were processed

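Trizol RNA was made into libraries with the NEBNext Ultra reagents, as the labels' protocols state. The deposited unit is FPKM per gene, as computed by the authors. The submitters' processing notes list Trimmomatic 0.36, with HISAT2, StringTie and SAMtools unversioned, and build GRCm38. The sources used here give neither strandedness nor annotation release.

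From these values log2(FPKM + 1) was fitted with limma 3.58.1 (R 4.3.3), 1 mean per group over 11 libraries, with an intensity trend and 7 residual degrees of freedom, and p-values were adjusted by Benjamini-Hochberg over 12035 genes (threshold 0.05). The difference of heat responses was an interaction contrast. The code of the fit was run on simulated data with independent noise for each gene. Those data held no differences of scaling, depth or transcript length, so they cannot show the part of these in the calls. The members and gene lists were chosen with earlier results of these data known. Named genes were the 15 highest and 15 lowest called genes of at least 5 FPKM without overlap, up to 5 per list by p-value, 11 chosen genes, and 8 in each direction of the difference. Predicted genes and loci without a symbol were left out of that rule, and some genes are not reported here. Alternatives were other scalings, pseudocounts and filters, a replicate block and leaving out each library. Exonic lengths and coordinates came from GENCODE M21 and promoters from RefSeq (GRCm38.p6).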

Additional observations from a re-analysis of the deposited data

Results flagged for a closer look

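The response to heat differed between YAP/TAZ siRNA and control siRNA for many genes by the interaction test (limma, adjusted p under 0.05). These are the 8 highest and 8 lowest differences among genes also called for heat, predicted genes, pseudogenes, clone names and loci without a symbol left out, and each value is the log2 difference, YAP/TAZ siRNA minus control siRNA. Among chaperones it was -4.52 for Hspa1a, -4.04 for Hspa1b and -3.94 for Hspb1. Among stress and p53-linked genes it was -4.24 for Atf3, -3.70 for Trp53inp1, -3.67 for Bbc3, -3.54 for Btg2 and -3.11 for Sesn2. These 8 were chosen as the lowest differences, so their sign was set by the choice, and each value compares heat responses and not levels.

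The response was higher under YAP/TAZ siRNA for the mitochondrial RNAs mt-Ty (2.50), mt-Tc (2.07), mt-Rnr1 (2.02), mt-Tv (1.75) and mt-Tn (1.69), and for the RNase MRP RNA Rmrp (1.98). Ube2l3, a ubiquitin-conjugating enzyme gene, had a difference of 2.32, from 5.94, 3.45 and 5.79 FPKM unheated to 24.5, 22.3 and 11.2 FPKM heated under YAP/TAZ siRNA. Mir5114, which lies within Scd2, had a difference of 7.24 and was near 0 FPKM in heated replicate 1 of the YAP/TAZ siRNA cells. Mir5114, mt-Tv and Rmrp passed the filter through the heated libraries alone.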

How the results depend on the processing

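With libraries set to one total 1333 genes were higher after heat, and with a filter at 5 FPKM 2459 were lower. For the difference between siRNAs, 2777 genes were lower with no filter and 820 with a filter at 5 FPKM, where more or fewer genes are tested, and 1931 were higher under median-of-ratios factors and 2019 after quantile normalization. Leaving out 1 library gave 1851 to 2310 genes higher and 3284 to 3905 lower after heat, and 2009 to 3170 higher and 936 to 1491 lower for the difference, lowest in both cases without heated control replicate 1. Quantile normalization reversed 12 of the named genes that were called as deposited, to -0.017 for Pgk1, -0.010 for Aldoa, -0.017 for Tubb5, -0.060 for Atp5b, -0.069 for Cfl1, -0.070 for Pkm, -0.053 for Sparc, -0.14 for Actg1, -0.097 for Ctsb, -0.028 for Tpm4, -0.19 for Tubb3 and -0.13 for Hspa9, and the cause was not tested. With the replicate number as a replicate block 2359 genes were higher and 4119 lower after heat, and 3345 and 1608 for the difference. Deviations of same-numbered libraries correlated at -0.081 to 0.14, so the numbers were not taken to pair the libraries. Without counts, the precision of low values is not known.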

Other observations

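Some of the highest values after heat belonged to entries that the rule for named genes left out, and these were chosen after their values were seen. The assembled locus MSTRG.19130 was listed at 0 in all unheated libraries of the YAP/TAZ siRNA cells and at 44.6, 44.4 and 56.2 FPKM in the heated ones, with 80.4 and 90.0 FPKM in heated control libraries. MSTRG.10411 was likewise listed at 0 unheated, and at 137, 142 and 26.6 FPKM heated, with 869.9 and 1053 FPKM in heated control libraries. The predicted gene Gm16581 went from 0.972, 0.0467 and 0.0323 FPKM to 26.1, 28.7 and 26.4 FPKM. Gm45717 was listed at 0 in all unheated libraries and at 0.748, 114 and 142 FPKM in the heated ones, so that heated replicate 1 stood apart from the other heated libraries, and it was listed at 0 in both heated control libraries.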
